A study of Homo sapiens with 6 samples.

Results

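Heterogeneous nuclear ribonucleoproteins (hnRNPs) were examined through the 10 genes HNRNPA1, HNRNPA2B1, HNRNPA3, HNRNPC, HNRNPD, HNRNPF, HNRNPH1, HNRNPK, HNRNPL and HNRNPU, chosen by name among the 60835 distinct gene names of the deposited tables. Each of the 10 had a single row in the count table and in the length-scaled table, and all 10 passed the filter on low counts. The cells were HEY, an established human ovarian cancer line, transfected with an siRNA against CCNL2 (siCCNL2, 3 libraries) or with a control siRNA (siNC, 3 libraries). The protocol states 48 h of CCNL2 siRNA in one wording for every library, so the same time is assumed for the controls. CCNL2 encodes cyclin L2, a cyclin with roles in transcription and splicing.

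hnRNPs are abundant RNA-binding proteins that coat nascent transcripts in the nucleus. They influence which exons are joined, largely by opposing the exon-promoting SR proteins, and several travel with the mature mRNA to the cytoplasm, where they affect its transport, translation and decay. Their levels are known to be held in check by feedback, because several of these proteins direct their own transcripts into splice forms that are degraded by nonsense-mediated decay.

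Libraries held 18095529, 13596286 and 15817416 counts in siCCNL2 and 16934044, 15771604 and 16011425 counts in siNC. Across 15346 tested genes, 33.6% were called between the groups at an adjusted p under 0.05 (edgeR's quasi-likelihood test, Benjamini-Hochberg adjustment), 17.2% higher and 16.5% lower in siCCNL2. The targeted gene itself had 203, 182 and 186 CPM (counts per 1000000 counted reads) in siCCNL2 and 261, 267 and 246 CPM in siNC, with no overlap. That is a log2 fold change of -0.44 (SE 0.044, adjusted p = 2.15e-08), a partial knockdown. The labels do not state whether the replicates are independent cultures. The p-values therefore speak to differences among these 6 libraries, part of which can be technical. In bulk RNA, a change in the number of cells with a transcript and a change in RNA per cell cannot be told apart. Of the fixed marker lists, 4 leukocyte genes summed to 0.316 to 0.515 CPM in siCCNL2 and 0.380 to 1.06 CPM in siNC. The erythroid gene HBA1 was at 0 in every library. The 3 endothelial genes summed to 45.6 to 54.4 CPM in siCCNL2 and 115 to 120 CPM in siNC, most of it CDH5, and their part in the results below was not tested. The mesenchymal genes VIM and CDH2 summed to 1560 to 1720 CPM in siCCNL2 and 1582 to 1615 CPM in siNC. Of the carcinoma markers, the 4 epithelial keratin and adhesion genes summed to 1059 to 1162 CPM in siCCNL2 and 1281 to 1343 CPM in siNC, and PAX8 with MUC16 and WT1 to 118 to 126 CPM in siCCNL2 and 136 to 143 CPM in siNC. Most of the first sum was KRT8 and KRT18. KRT19 (mean 2.90 CPM in siCCNL2, 3.53 CPM in siNC) and EPCAM (2.72 CPM in siCCNL2, 1.84 CPM in siNC) were low and not called, and EPCAM went the other way. Most of the second sum was PAX8, and MUC16 had at most 7 counts in any library.

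Of the 10 hnRNP genes, 4 were called higher in siCCNL2 (HNRNPA1, HNRNPU, HNRNPD and HNRNPF), 0 were called lower and 6 were not called. The background of genes called higher was 17.2% over all tested genes. Among the 798 tested genes whose mean CPM reached that of the lowest member, which are counted as precisely as the members, it was 30.5% higher and 29.2% lower. Beside the 0 members called lower by edgeR, 1 member, HNRNPA3, was lower at an unadjusted p under 0.05. At the same unadjusted threshold HNRNPA2B1 was higher, in addition to the 4 called. The DESeq2 Wald test called 0 members lower and edgeR with upper-quartile factors called 1. The members' log2 fold changes ran from -0.082 to 0.29 with a median of 0.059, against a median of 0.0023 over all tested genes. The members' median was 0.091 without siCCNL2 replicate 1 and 0.034 without siCCNL2 replicate 2. In absolute size the members' median was 0.075 and that of all tested genes 0.19. Most tested genes lie below the lowest member's mean CPM and are counted less precisely, which widens their estimates. The absolute median of the 798 genes was not computed, so the members cannot be said to have changed less than comparable genes. The groups did not overlap in CPM for 2 of the 10, HNRNPA1 and HNRNPU, where the share over all tested genes was 43.9%. The call count depended on the test and threshold, on 1 choice of scaling and on single libraries. It stayed at 4 with DESeq2 size factors and with no composition factor. It fell to 2 with upper-quartile factors, with the DESeq2 Wald test, and without siCCNL2 replicate 2, siCCNL2 replicate 3 or siNC replicate 1, and reached 5 without siCCNL2 replicate 1.

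**Figure D1:**
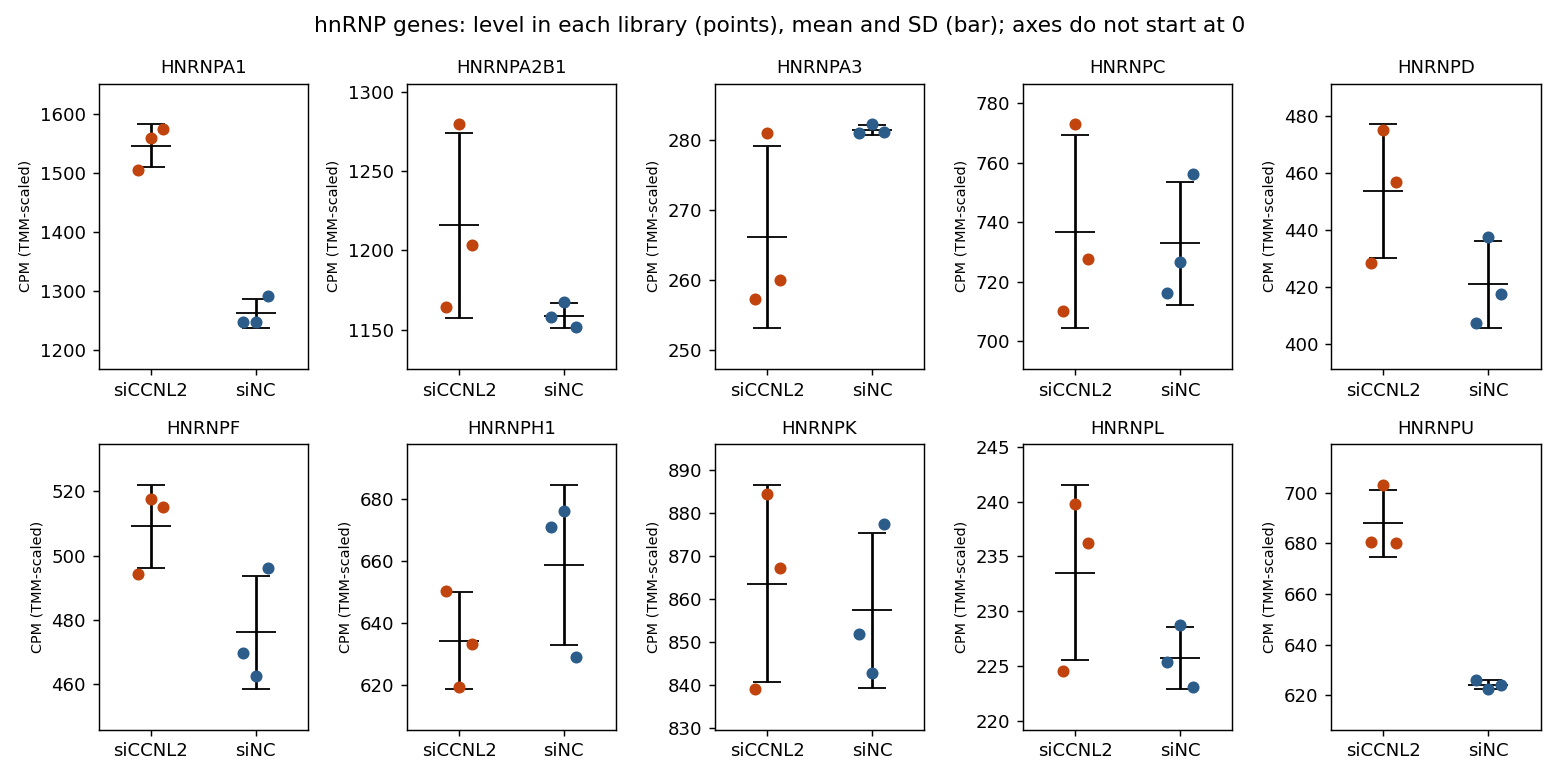
TMM-scaled CPM of the 10 hnRNP genes, 1 panel per gene with its own axis, which does not start at 0. Points are libraries in the order of replicates 1 to 3, and bars give the mean and SD of each group (n = 3). The groups separate for HNRNPA1 (1505 to 1574 CPM in siCCNL2, 1247 to 1291 CPM in siNC) and HNRNPU, and overlap in the other panels.

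HNRNPA1 encodes a shuttling protein that represses exon inclusion and binds UAGG-containing RNA. It had 1505, 1559 and 1574 CPM in siCCNL2, against 1247, 1248 and 1291 CPM in siNC. Every siCCNL2 library lay above every siNC library. The means were 1546 ± 36.3 CPM in siCCNL2 and 1262 ± 25.1 CPM in siNC (SD, n = 3 each). HNRNPA1 rose 1.225-fold (95% interval 1.17 to 1.28, log2 fold change 0.29, SE 0.030, adjusted p = 4.05e-08). The exact two-sided permutation p on CPM was 0.1, the smallest that 3 libraries against 3 allow. Its log2 fold change stayed between 0.27 and 0.31 under all 18 alternatives and was called in each. HNRNPA1 lies on the plus strand of chromosome 12 at 54280193 to 54287088 (GRCh38, as deposited). HNRNPU lies on chromosome 1 at 244840638 to 244864560, HNRNPD on chromosome 4 at 82352498 to 82374503 and HNRNPF on chromosome 10 at 43385617 to 43409186, each on the minus strand.

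HNRNPU, also known as scaffold attachment factor A, binds both RNA and DNA and takes part in chromatin organisation. It had 680, 703 and 680 CPM in siCCNL2, against 626, 623 and 624 CPM in siNC. The siNC libraries differed by a few CPM, and all siCCNL2 libraries were above them. With 3 libraries per group, so small a spread is itself poorly known. HNRNPU rose 1.10-fold (log2 fold change 0.14, 95% interval 0.075 to 0.20, SE 0.031, adjusted p = 0.00113), with 688 ± 13.1 CPM in siCCNL2 and 624 ± 1.66 CPM in siNC (SD, n = 3 each). It was called under all 18 alternatives, the call at a threshold of 0.01 included, with log2 fold changes of 0.12 to 0.15.

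HNRNPD encodes AUF1, which binds AU-rich elements in the 3′ ends of short-lived mRNAs and is best known for promoting their decay. It had 429, 475 and 457 CPM in siCCNL2, against 408, 438 and 418 CPM in siNC. The groups overlapped, since siCCNL2 replicate 1 lay below siNC replicate 2. The fit put the change at 0.11 on the log2 scale (SE 0.039, adjusted p = 0.0378). The call was lost under 9 of 18 alternatives, among them upper-quartile factors (adjusted p = 0.0818) and the DESeq2 Wald test (0.0539). Without siCCNL2 replicate 2 or 3 the adjusted p was 0.164 or 0.121, and without siNC replicate 1 or 3 it was 0.168 or 0.0765.

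HNRNPF encodes a protein that binds runs of guanines and acts on nearby splice sites and polyadenylation signals. It had 494, 518 and 515 CPM in siCCNL2, against 470, 463 and 496 CPM in siNC. The groups met at 1 point, siCCNL2 replicate 1 lying narrowly below siNC replicate 3. On the log2 scale it rose by 0.096 (SE 0.035, adjusted p = 0.0390). The call was lost under 10 of 18 alternatives, among them upper-quartile factors (adjusted p = 0.0912), no count filter (0.0640) and the DESeq2 Wald test (0.0528). Leaving out siCCNL2 replicate 2 or 3 gave 0.0873 or 0.135, and leaving out siNC replicate 1 or 2 gave 0.124 or 0.179.

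Promoter windows of HNRNPU, HNRNPD and HNRNPF are shown because these are the members called higher for which the RefSeq promoter table (GRCh38.p14) holds an entry. HNRNPA1 was not matched. Each window runs from 250 bases before to 50 bases after an annotated start and is written 5′ to 3′ on the strand of the gene, and for HNRNPF the start farthest upstream was taken. Capitals mark matches on either strand to 5 motifs. The TATA box was searched as TATAAA and the CCAAT box by the letters of its name. The GC box was searched as GGGCGG. The E-box, which reads the same on both strands, was searched as CACGTG. The ETS core was searched as CCGGAAG.
HNRNPU, chr1:244864494-244864793, minus strand: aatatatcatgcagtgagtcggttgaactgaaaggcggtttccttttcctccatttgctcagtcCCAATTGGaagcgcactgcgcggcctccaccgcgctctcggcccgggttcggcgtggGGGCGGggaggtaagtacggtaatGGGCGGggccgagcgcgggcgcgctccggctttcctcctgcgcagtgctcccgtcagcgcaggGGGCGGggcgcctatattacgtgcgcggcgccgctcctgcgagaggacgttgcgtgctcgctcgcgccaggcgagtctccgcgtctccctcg
HNRNPD, chr4:82373942-82374241, minus strand: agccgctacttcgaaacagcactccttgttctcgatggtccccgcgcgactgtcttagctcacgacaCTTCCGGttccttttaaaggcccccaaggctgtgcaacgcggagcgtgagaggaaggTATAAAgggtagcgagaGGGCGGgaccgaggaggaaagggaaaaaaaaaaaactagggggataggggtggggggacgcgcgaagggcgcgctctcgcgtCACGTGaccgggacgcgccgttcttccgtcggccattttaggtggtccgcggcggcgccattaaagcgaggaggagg
HNRNPF, chr10:43408808-43409107, minus strand: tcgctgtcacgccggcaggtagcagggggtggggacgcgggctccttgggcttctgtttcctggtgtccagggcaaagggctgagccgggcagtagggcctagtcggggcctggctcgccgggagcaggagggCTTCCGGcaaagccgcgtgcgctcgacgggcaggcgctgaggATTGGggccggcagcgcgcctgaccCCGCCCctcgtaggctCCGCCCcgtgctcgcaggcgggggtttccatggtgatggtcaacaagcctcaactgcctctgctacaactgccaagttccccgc

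All 3 windows held a GC box, with 3 matches in HNRNPU, 1 in HNRNPD and 2 in HNRNPF. In HNRNPU the 2 CCAAT matches overlap on opposite strands. The HNRNPD window alone of these 3 held a TATA box and an E-box, and HNRNPD and HNRNPF each held 1 ETS core. Over the 15 promoter windows of the 9 matched members, 66.7% held a CCAAT box and 66.7% a GC box, against 34.6% and 45% of all 35116 windows in the table. TATA boxes were in 13.3% of member windows and 11.5% of all windows, E-boxes in 13.3% and 7.26%, and ETS cores in 13.3% and 10.3%. The member windows had a median GC content of 66%, where all windows had 58.7%. Windows of 1 gene can overlap, and a match is a description of the letters and not a site. E-boxes are the element bound by MYC, which is known to drive HNRNPA1, HNRNPA2B1 and PTBP1 transcription in other cells. The HNRNPA2B1 window held 0 E-boxes, and no HNRNPA1 or PTBP1 window is shown. MYC stood at 249, 247 and 257 CPM in siCCNL2 and 249, 265 and 260 CPM in siNC, and was not called (log2 fold change -0.037, SE 0.038, adjusted p = 0.489). MYC protein was not measured here, and the part of MYC in these results was not tested.

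HNRNPA2B1 and HNRNPA3 are the close relatives of HNRNPA1, with the same layout of paired RNA recognition motifs and a glycine-rich tail. HNRNPA2B1 had 1164, 1280 and 1204 CPM in siCCNL2, against 1158, 1167 and 1151 CPM in siNC. The siCCNL2 libraries were spread much more widely than the siNC libraries, and replicate 1 of siCCNL2 fell inside the siNC range. HNRNPA2B1 stood 0.069 higher on the log2 scale (SE 0.033, adjusted p = 0.117), and it was called without siCCNL2 replicate 1 (0.10, adjusted p = 0.0198), while without siCCNL2 replicate 2 it was 0.035 (adjusted p = 0.451). HNRNPA3 had 257, 281 and 260 CPM in siCCNL2, against 281, 282 and 281 CPM in siNC. Replicates 1 and 3 of siCCNL2 were below all siNC libraries and replicate 2 was level with them. HNRNPA3 had a log2 fold change of -0.082 (SE 0.039, adjusted p = 0.109), and was called lower without siCCNL2 replicate 2 (-0.12, adjusted p = 0.0212) and with upper-quartile factors (-0.10, adjusted p = 0.0445).

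The balance among these relatives was compared within each library, where scaling between libraries cancels, using the deposited length-scaled value (a TPM-like score) and an exact two-sided permutation test adjusted over 4 ratios. The log2 ratio of HNRNPA3 to HNRNPA1 was -3.14, -3.06 and -3.19 in siCCNL2, against -2.74, -2.74 and -2.79 in siNC. The groups did not overlap, and the difference was -0.37. The log2 ratio of HNRNPA2B1 to HNRNPA1 averaged -1.05 ± 0.054 in siCCNL2 and -0.83 ± 0.037 in siNC (SD, n = 3 each), again without overlap. HNRNPA3 over HNRNPA2B1 was -2.06, -2.07 and -2.10 in siCCNL2, against -1.93, -1.93 and -1.92 in siNC, a difference of -0.15. Each of these 3 ratios had an exact permutation p of 0.1, the smallest the design allows, and 0.133 after adjustment, so none could pass 0.05. The 3 are not separate results. HNRNPA3 over HNRNPA2B1 follows from the others, and the others share HNRNPA1, which was itself called higher. In linear terms, HNRNPA2B1 stood at 0.482 of HNRNPA1 in siCCNL2 and 0.563 of it in siNC per length. For HNRNPH1 over HNRNPF, another pair of relatives, the log2 ratio averaged -0.70 ± 0.071 in siCCNL2 and -0.55 ± 0.11 in siNC (SD, n = 3 each). Those groups overlapped (exact permutation p = 0.2, also 0.2 adjusted).

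**Figure D2:**
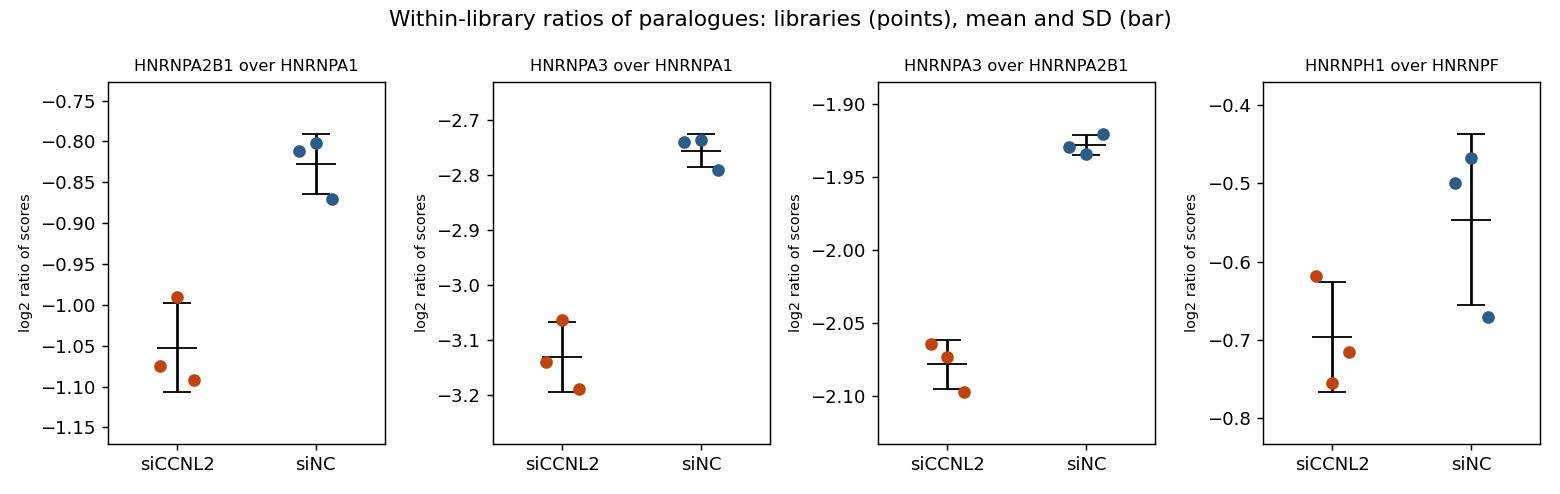
Log2 ratio of the length-scaled scores of 2 related hnRNP genes within each library, siCCNL2 left and siNC right in each panel, with the mean and SD of each group (n = 3). In the first 3 panels all siCCNL2 libraries lie below all siNC libraries, by 0.22, 0.37 and 0.15 on average, and the HNRNPH1 over HNRNPF panel overlaps.

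The other members were not called. HNRNPH1, a guanine-run binder closely related to HNRNPF, had 650, 619 and 633 CPM in siCCNL2, against 671, 676 and 629 CPM in siNC. The highest siCCNL2 library was above the lowest siNC library, with an estimate of -0.054 (SE 0.035, adjusted p = 0.254). Leaving out siNC replicate 3 put it at -0.084 (adjusted p = 0.0760), and leaving out siCCNL2 replicate 2 or siNC replicate 2 put it at -0.034 each. HNRNPK, which binds C-rich RNA through KH domains, had 839, 884 and 867 CPM in siCCNL2, against 852, 843 and 877 CPM in siNC. HNRNPC, which binds uridine tracts and shields pre-mRNA from inclusion of Alu-derived exons, had 710, 773 and 728 CPM in siCCNL2, against 716, 727 and 756 CPM in siNC. For both genes the ranges lay over each other, and the estimates were small: 0.010 for HNRNPK (95% interval -0.056 to 0.076, adjusted p = 0.841) and 0.0073 for HNRNPC (-0.066 to 0.080, adjusted p = 0.899). The sign of these 2 estimates turned negative under 5 of 18 alternatives each, upper-quartile factors and omission of siCCNL2 replicate 2 included. HNRNPL, which binds CA repeats, had 225, 240 and 236 CPM in siCCNL2, against 225, 229 and 223 CPM in siNC. Replicate 1 of siCCNL2 was within the siNC range, and the log2 fold change was 0.048 (95% interval -0.031 to 0.13, adjusted p = 0.363). It was 0.079 without siCCNL2 replicate 1 and 0.029 with upper-quartile factors.

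**Figure D3:**
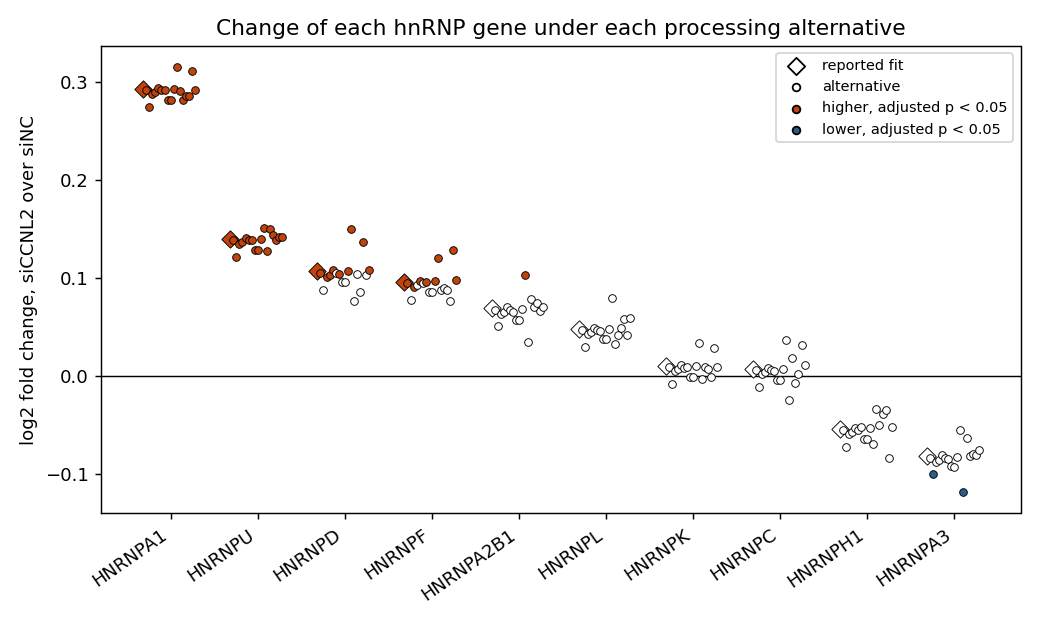
Log2 fold change (siCCNL2 over siNC) of each hnRNP gene in the reported fit (diamond) and under 17 alternatives (circles), filled where the adjusted p was under 0.05. HNRNPA1 and HNRNPU are filled throughout, HNRNPD and HNRNPF only in part, and the points of HNRNPK and HNRNPC lie on both sides of 0.

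Compared per length on the TPM-like score, HNRNPA1 was the most abundant member, with 1145 ± 22.5 in siCCNL2 and 942 ± 10.6 in siNC (SD, n = 3 each), and HNRNPK followed with 900 ± 7.18 in siCCNL2 and 901 ± 11.7 in siNC. Among the 15346 tested genes this placed HNRNPA1 at rank 91 in siCCNL2 and 116 in siNC. HNRNPF (564 in siCCNL2, 532 in siNC) and HNRNPA2B1 (552 in siCCNL2, 531 in siNC) were the only neighbours in the order whose libraries overlapped, in either group. HNRNPC came next with 500 in siCCNL2 and 501 in siNC, then HNRNPH1 with 348 in siCCNL2 and 364 in siNC. HNRNPD had 301 in siCCNL2 and 282 in siNC, and HNRNPL had 230 in siCCNL2 and 224 in siNC. The lowest were HNRNPU, with 160 in siCCNL2 and 147 in siNC, and HNRNPA3, with 131 ± 3.52 in siCCNL2 and 139 ± 1.36 in siNC. The order of the 10 was the same in both groups, but the gaps differed. Those between HNRNPA1 and HNRNPK and between HNRNPU and HNRNPA3 were wider in siCCNL2, and that between HNRNPH1 and HNRNPD was narrower. On this score the groups also did not overlap for HNRNPA2B1, HNRNPA3 and HNRNPF, where the share over all tested genes was 43.1%.

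**Figure D4:**
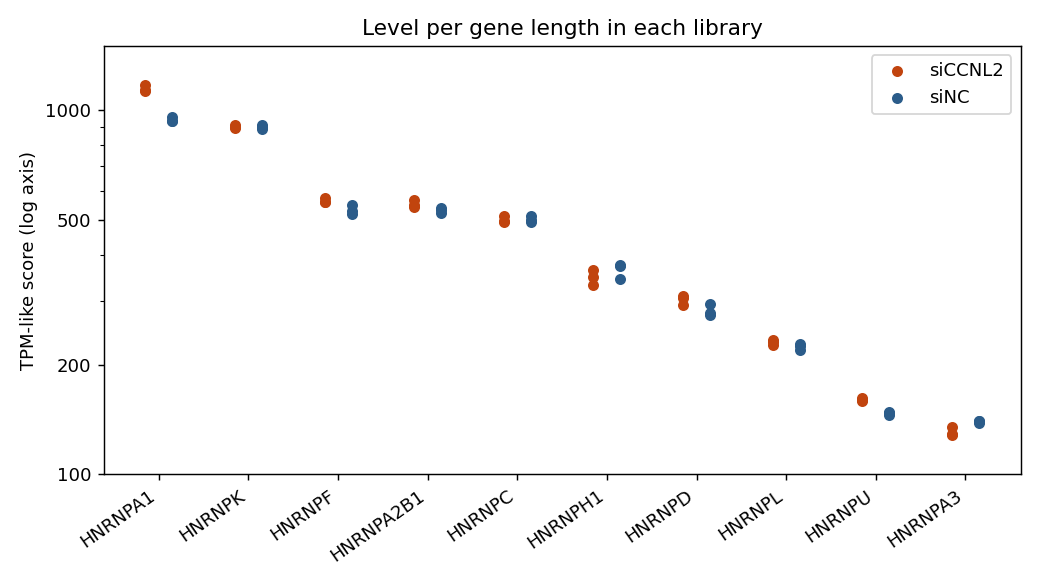
TPM-like score of the 10 hnRNP genes in each library on a log axis, genes in descending order of their siNC mean, siCCNL2 points left of siNC points. HNRNPA1 has the highest score in both groups and the widest gap between them (1127 to 1170 in siCCNL2, 936 to 954 in siNC).

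Summed over the 10 genes, the members took 6954, 7332 and 7154 CPM in siCCNL2, against 6653, 6694 and 6747 CPM in siNC. All siCCNL2 sums were above all siNC sums, and the siCCNL2 sum was highest in replicate 2, the library with the fewest counts, and lowest in replicate 1, the one with the most. Whether depth played a part was not tested. HNRNPA1 accounted for 63.3% of the difference between the mean sums, and its share of the sum was 21.6% ± 0.366 in siCCNL2 and 18.8% ± 0.260 in siNC (SD, n = 3 each). Without HNRNPA1 the remaining 9 genes summed to 5449, 5773 and 5580 CPM in siCCNL2, against 5406, 5446 and 5456 CPM in siNC, and the groups overlapped. The 3 other tested genes nearest to the members' mean profile, by root mean square difference of centred log2 CPM over the 6 libraries, were NARS1 (0.0083), ETV5 (0.010) and HMGB1 (0.011), where the median of all other tested genes was 0.17. None of these 3 was called (adjusted p 0.182, 0.328 and 0.0958). They were chosen for the smallest distances, so their gap to the median follows from the choice and does not show a shared pattern.

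Of 24 other hnRNP and hnRNP-like genes listed, 20 were tested, and 9 were called higher, 2 lower and 9 not, with a median log2 fold change of 0.087. Over all tested genes 17.2% were called higher and 16.5% lower, and 30.5% and 29.2% at or above the lowest member's mean CPM, and no test of a difference from these shares was run. The largest rises were in PCBP4, a poly(C)-binding protein (26.2, 26.8 and 25.7 CPM in siCCNL2, against 19.1, 22.4 and 18.4 CPM in siNC, log2 fold change 0.40, SE 0.085, adjusted p = 7.07e-04), and HNRNPM, which promotes or represses exons at GU-rich sites (360, 399 and 411 CPM in siCCNL2, against 310, 299 and 315 CPM in siNC, 0.34, SE 0.042, adjusted p = 7.99e-07). PTBP1, the polypyrimidine tract-binding splicing repressor, had 513, 504 and 515 CPM in siCCNL2, against 405, 406 and 404 CPM in siNC (log2 fold change 0.33, SE 0.033, adjusted p = 1.50e-08). HNRNPA0 rose by 0.22 on the log2 scale (adjusted p = 6.06e-05). The relatives of PTBP1 went the other way. PTBP3 fell to 276, 282 and 285 CPM in siCCNL2, against 339, 328 and 325 CPM in siNC (log2 fold change -0.23, SE 0.036, adjusted p = 1.23e-05), and PTBP2, the form known from neurons, had 46.1 ± 5.13 CPM in siCCNL2 and 54.4 ± 2.93 CPM in siNC (SD, n = 3 each, log2 fold change -0.23, adjusted p = 0.0101). The PTBP2 call was lost without siCCNL2 replicate 2 (log2 fold change -0.15, adjusted p = 0.0905) and without siNC replicate 1 (-0.19, adjusted p = 0.0747). The other 5 called higher were HNRNPUL1, HNRNPDL, HNRNPH3, HNRNPH2 and HNRNPR, with log2 fold changes of 0.12 to 0.19.

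**Figure D5:**
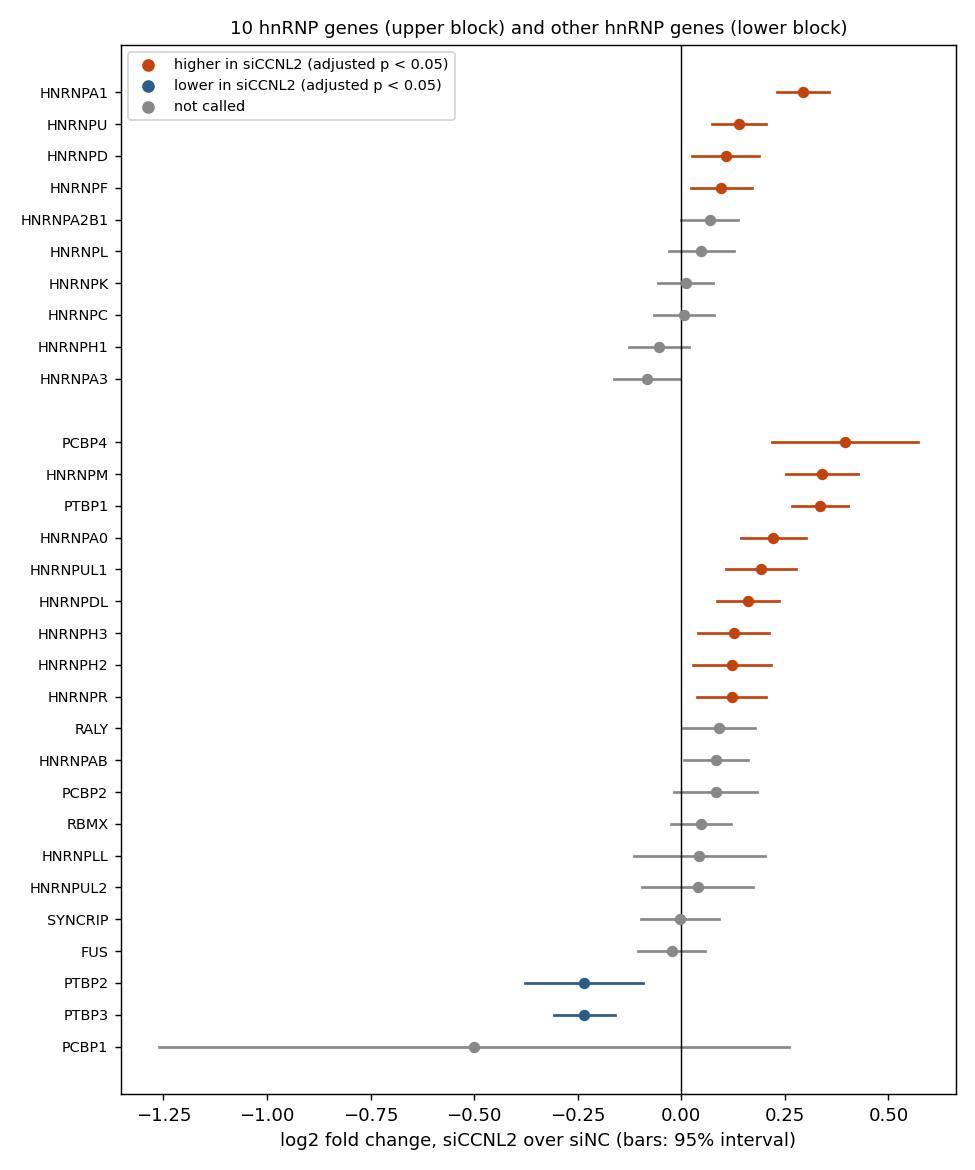
Log2 fold change (siCCNL2 over siNC) with its 95% interval for the 10 hnRNP genes (upper block) and 20 other tested hnRNP genes (lower block), coloured by call. Most called genes lie between 0.1 and 0.4, PTBP2 and PTBP3 are the only ones called lower, and PCBP1 has the widest interval.

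Enzymes and carriers that act on hnRNP proteins moved in both directions. Of 6 tested, 1 rose, 2 fell and 3 were not called, beside 17.2% higher and 16.5% lower over all tested genes. TNPO1, the transportin that imports HNRNPA1 into the nucleus, had 418, 409 and 416 CPM in siCCNL2, against 464, 465 and 430 CPM in siNC (log2 fold change -0.13, SE 0.036, adjusted p = 0.00693), a call lost without siNC replicate 1 (adjusted p = 0.0512) or siNC replicate 2 (0.0554). The kinases MKNK1 and MKNK2, which phosphorylate HNRNPA1 and the cap-binding factor eIF4E, went opposite ways: MKNK2 was 64.7 ± 3.86 CPM in siCCNL2 and 50.7 ± 2.15 CPM in siNC (log2 fold change 0.35, adjusted p = 3.87e-05), and MKNK1 was 28.1 ± 2.95 CPM in siCCNL2 and 36.2 ± 2.33 CPM in siNC (-0.37, adjusted p = 4.93e-04, SD, n = 3 each). The arginine methyltransferase genes PRMT1 (0.065, adjusted p = 0.190) and PRMT5 (0.034, adjusted p = 0.725) were not called.

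Genes tied to the AU-rich elements that HNRNPD binds were also counted. Of 7 other proteins that bind these elements, 1 rose and 1 fell. KHSRP, which promotes decay of such mRNAs, had 338, 347 and 354 CPM in siCCNL2, against 288, 295 and 304 CPM in siNC (log2 fold change 0.23, SE 0.036, adjusted p = 2.41e-05). ZFP36L1, a decay factor of the tristetraprolin family, had 325, 324 and 326 CPM in siCCNL2, against 392, 368 and 364 CPM in siNC (-0.21, SE 0.036, adjusted p = 8.62e-05). Of 12 mRNAs with AU-rich elements, 10 were tested, 1 rose and 4 fell. Over all tested genes 17.2% were called higher and 16.5% lower, and 29.2% lower at or above the lowest member's mean CPM. CCND1 (log2 fold change -1.08), CDKN1A (-0.54, 468 ± 2.38 CPM in siCCNL2 and 679 ± 12.7 CPM in siNC, SD, n = 3 each), CXCL8 (-0.36) and GADD45A (-0.17) fell under every alternative run. VEGFA rose by 0.20 (adjusted p = 0.0484), a call lost under 13 of 17 alternatives. Among these were leaving out siCCNL2 replicate 1 (adjusted p = 0.183), siCCNL2 replicate 2 (0.0754), siNC replicate 1 (0.0661), siNC replicate 2 (0.0700) and siNC replicate 3 (0.160).

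Counts of hnRNP genes can be shared with near-identical copies. The table lists 113 pseudogenes named for the 10 members, 74 of them for HNRNPA1, and 58 had at least 1 read in some library. Reads assigned to HNRNPA1 pseudogenes came to 5.02% to 5.38% of the HNRNPA1 count in siCCNL2 and 5.26% to 5.54% in siNC. For HNRNPA3 they were 2.67% to 2.95% in siCCNL2 and 2.04% to 2.61% in siNC, 2 ranges that do not overlap. For HNRNPL they were 1.40% to 2.80% in siCCNL2 and 1.24% to 1.52% in siNC, and for HNRNPC and HNRNPK at most 2.80% in any library. Adding these reads to their parent genes left HNRNPA1 at a log2 fold change of 0.29 (adjusted p = 4.41e-08) and changed no member's call. The addition covers only reads that were assigned to a gene or its pseudogene. Reads assigned to neither are not in the counts, and their part was not tested.

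Genes that overlap a member can share its reads too, since strand use in counting was not given in the sources used here. HNRNPA2B1 (chromosome 7) overlaps CBX3, a heterochromatin protein gene transcribed the other way, over 368 bases that are exonic in both genes in GENCODE release 29. CBX3 had 177 CPM in siCCNL2 and 204 CPM in siNC and was called lower (log2 fold change -0.20, SE 0.038, adjusted p = 1.70e-04). NFE2L3, which encodes a relative of NRF2, also overlaps HNRNPA2B1 on the opposite strand, outside exons, and was called lower (-0.38, adjusted p = 1.42e-04). HNRNPA3 (chromosome 2) overlaps NFE2L2, the NRF2 gene, on the opposite strand over 5293 bases with 0 exonic bases in common, and NFE2L2 fell by 0.24 (adjusted p = 8.06e-04). HNRNPU shares 3502 exonic bases with COX20 on the opposite strand, and COX20, named here after its values were seen, had 11 to 24 counts per library. A low count of an overlapping gene does not show how reads in the shared bases were treated. The part of this overlap in the HNRNPU and COX20 values was not tested. Among the other 7 members, none was found to overlap HNRNPC or HNRNPF. Genes overlapping the rest, AC008982.2 in HNRNPL and Metazoa_SRP in HNRNPH1 among them, had at most 0.899% of their member's counts. Some share exonic bases with the member: AC008982.1 shares 561 with HNRNPL and HNRNPD-DT 203 with HNRNPD. HNRNPK-AS1 shares 309 and MIR7-1 110 with HNRNPK. The part of these overlaps in the member values was not tested either.

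The tables give 1 value per gene and do not resolve splice forms. In GENCODE release 29, 8 of the 10 members have at least 1 transcript annotated for nonsense-mediated decay and 9 have a retained-intron form, or 80% and 90%, against 42.9% and 57.6% of 12318 tested protein-coding genes. HNRNPU has 9 decay-annotated transcripts and HNRNPH1 has 4, while HNRNPA3 and HNRNPF have 0. The members have a median of 13 annotated transcripts and the tested protein-coding genes 8. A gene's count sums over all of these forms, so a shift between productive and decay-bound transcripts was not measured here.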

How the data were processed

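Total RNA was sequenced from 3 siCCNL2 and 3 siNC libraries of HEY cells, grouped by title and genotype label. The deposited table of read counts holds whole numbers per gene, not normalized. Tools listed in the submitters' processing notes are fastp 0.23.0, HTSeq 2.0.1 and HISAT2, and the build is GRCh38. Which annotation release and strand setting were used is not given in the sources used here. Separately, the authors deposited a TPM-like score, counts per gene length on a scale of 1000000, treated as a score because repeated names push the column sums higher. Of 62710 rows, each of the 60835 names was used once.

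Counts were filtered with filterByExpr and tested in edgeR 4.0.16 (R 4.3.3) with TMM factors, the quasi-likelihood test and Benjamini-Hochberg adjustment over all 15346 tested genes, siCCNL2 over siNC. Genes were called at an adjusted p under 0.05. Standard errors are the log2 fold change over the square root of F, intervals use the test's degrees of freedom, and CPM is TMM-scaled. The fit was tested on simulated data. Member counts ran from 3216 to 27435 per library. For single members, the spread from counting and the spread between libraries were not separated. Chi-square per degree of freedom between libraries of the same group was 2.20 to 3.90, so no pair agreed within sampling noise and none was treated as 1 library deposited more than once. This does not show that they are separate cultures.

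Alternatives were DESeq2 1.42.0 size factors, upper-quartile or no composition factors, other count filters, the DESeq2 Wald test, limma 3.58.1 (voom, and trend on the log2 score with a pseudocount of 1 or 0.1), a threshold of 0.01, the replicate number as a block, each library left out, and members summed with their pseudogenes. Permutation tests used scipy 1.17.1. The members and gene lists were chosen with earlier results of these data known. Named genes were the members, CCNL2, up to 4 called genes per direction and list, genes of at least 1 CPM that overlap a member, and the 3 nearest profiles. The marker genes KRT8, KRT18, KRT19, EPCAM, CDH5, VIM, CDH2, PAX8, MUC16, WT1 and HBA1, and MYC, PRMT1, PRMT5, COX20, PCBP1, PCBP2, PCBP1-AS1 and 5 further hnRNP genes fall outside this rule and are named after their values were seen. The same holds for AC008982.1, HNRNPD-DT, HNRNPK-AS1 and MIR7-1. Coordinates are as deposited (GRCh38). GENCODE release 29 and RefSeq promoters (GRCh38.p14) share that build.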

Additional observations from a re-analysis of the deposited data

How the results depend on the processing

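HNRNPA1, HNRNPU and the fall of CCNL2 kept their direction and call under every alternative run, and the counts of all genes called higher (1869 to 2673) and lower (1743 to 2783) stayed within 1.5 times those reported. The 4 members called higher became 2 with upper-quartile factors, the DESeq2 Wald test, limma-trend on the log2 score with either pseudocount (1 or 0.1) and a threshold of 0.01, and 2 to 5 when 1 library was left out. The members called lower numbered 1 with upper-quartile factors and 0 to 1 without 1 library. HNRNPC had log2 fold changes of -0.011 with upper-quartile factors, -0.0037 on both score scales and -0.024 to 0.036 without 1 library, and HNRNPK -0.0084, -0.00050 and -0.0035 to 0.034. Other hnRNP genes called lower became 1 on both score scales and at a threshold of 0.01, and 1 to 2 without 1 library. The lower-called import and modifying enzymes became 1 on both score scales and 1 to 2 without 1 library. AU-rich element binding proteins called lower became 2 with upper-quartile factors or the replicate block, and 1 to 2 without 1 library. AU-rich element mRNAs called higher became 0 with upper-quartile factors, no composition factor, no count filter, the DESeq2 Wald test, limma-voom, both score scales and a threshold of 0.01, and 0 to 2 without 1 library. The causes were not tested. Deviations of same-numbered libraries correlated at 0.050, 0.034 and 0.063 over 11512 genes, and those of differently numbered libraries at -0.084 to 0.039. These correlations are small, and whether replicate numbers pair the samples cannot be told from them. With the replicate block, 4 members were called higher and 0 lower, and 2673 genes were called higher and 2561 lower. Under the alternatives run, the difference in log2 ratio ranged from -0.26 to -0.20 for HNRNPA2B1 over HNRNPA1, -0.41 to -0.35 for HNRNPA3 over HNRNPA1, -0.16 to -0.14 for HNRNPA3 over HNRNPA2B1 and -0.21 to -0.11 for HNRNPH1 over HNRNPF, and the summed log2 ratio from 0.075 to 0.12.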

Other observations

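PCBP1, a single-exon gene for a poly(C)-binding protein usually counted among abundant hnRNPs, was listed at 0.768, 2.09 and 1.27 CPM in siCCNL2 and 1.77, 2.78 and 1.13 CPM in siNC, while PCBP2 had 111 ± 3.47 CPM in siCCNL2 and 105 ± 5.66 CPM in siNC (SD, n = 3 each). In the deposited coordinates PCBP1 lies wholly within PCBP1-AS1 on the opposite strand over 1727 bases, of which 914 are exonic in both genes in GENCODE release 29, and PCBP1-AS1 had 145 to 274 counts per library. PCBP1-AS1 was called higher (log2 fold change 0.40, SE 0.12, adjusted p = 0.0137), a call lost under 6 of 17 alternatives, among them leaving out siCCNL2 replicate 1 (adjusted p = 0.102), siCCNL2 replicate 3 (0.0544) or siNC replicate 1 (0.0522). How the counting treated reads in the shared bases was not given in the sources used here, and the part of this overlap in the low PCBP1 value was not tested. PCBP1 was not called (log2 fold change -0.50, SE 0.37, adjusted p = 0.324). PCBP1 and PCBP1-AS1 are named here after their values were seen.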
